A study of Homo sapiens with 5 samples.

Results

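The cells described here are 76 mouse host cells, of 4961 host cells and 40966 barcodes in the 4 graft libraries, chosen by marker transcripts of myeloid cells. Whether they lay in the tissue or in its blood vessels was not tested. Host cells were barcodes with more than 500 mouse unique molecular identifiers (UMIs, counts of captured transcripts) and under 20% human UMIs. Of these, cells were kept that had a UMI of at least 2 of the 6 genes Plac8, Ly6c2, S100a4, Slpi, S100a8 and S100a9. They also had no UMI of P2ry12, Cx3cr1 (microglia) or Cldn5 (endothelium), and UMIs of fewer than 2 of the 7 T and NK cell genes Cd3e, Cd3d, Trac, Trbc2, Nkg7, Gzma and Klrd1. The cells so chosen are called members below. The rule was meant to collect host monocytes and granulocytes, but the members proved to be a mixture that included plasmacytoid-dendritic-like and other cells, so they are named by the rule. Because measured values chose the members, their levels against other host cells are given as a description with no test.

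The study followed human brain organoids after grafting into mouse brain. Organoids were grown from the H9 embryonic stem cell line carrying AAVS-ChR2-EYFP, a channel protein fused to a yellow fluorescent protein, and were grafted on day 42 of culture into severe combined immunodeficient (SCID) mice that were 6 to 8 weeks old. The study names the host SCID in its methods and SCID-Beige elsewhere. The 4 graft groups were HIP_2MPT and HIP_4MPT (hippocampus, 2 and 4 months post-transplantation, MPT) and PFC_2MPT and PFC_4MPT (prefrontal cortex, the same stages), with 1 library each. EYFP-positive tissue was cut out under a fluorescence microscope and digested with trypsin, so host cells came along with the graft, unsorted; tissue of 16 grafted mice in all went into the 4 libraries, so animals were pooled, the number per library is not given in the sources used here, and no member can be traced to an animal. All 4 groups shared the immunodeficient host, a strain known for a severe shortage of mature T and B cells, although T cell and immunoglobulin transcripts were found and are given below. None of the groups was ungrafted or sham-operated, so no host background without a graft can be set beside these values.

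Monocytes, neutrophils and dendritic cells are made in bone marrow and circulate in blood, whereas microglia settle in the brain before birth and renew themselves there. Classical mouse monocytes carry Ly6c2, Ccr2 and lysozyme (Lyz2). Neutrophils are filled with the calcium-binding proteins S100a8 and S100a9, and plasmacytoid dendritic cells, which secrete type I interferon, share Plac8 and Ly6c2 with monocytes but are known by Siglech and Ccr9.

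The members came almost entirely from 1 library. HIP_2MPT held 71 members among 916 host cells (7.75%, 95% Clopper-Pearson interval 6.10 to 9.68). PFC_2MPT held 2 of 772 (0.259%, 0.0314 to 0.933), HIP_4MPT 1 of 2071 (0.0483%, 0.00122 to 0.269) and PFC_4MPT 2 of 1202 (0.166%, 0.0202 to 0.600). The interval of HIP_2MPT lay above the other 3, which overlapped each other; these intervals cover counting error only. Without members that had at least 2 MHC class II or at least 2 macrophage genes, HIP_2MPT held 14 of 916 (1.53%, 0.838 to 2.55), and its interval then overlapped that of PFC_2MPT. HIP_2MPT also stood apart in other ways, and whether these bear on the members was not tested. Its host cells were the shallowest, with a median of 1263 mouse UMIs against 2429.5, 2902 and 2450 in PFC_2MPT, HIP_4MPT and PFC_4MPT. At least 2 T or NK cell genes were found in 67 of its host cells (7.31%) but in 4, 8 and 3 host cells of those libraries. At least 2 of the 4 major histocompatibility complex (MHC) class II genes H2-Aa, H2-Ab1, H2-Eb1 and Cd74 were found in 520 of its host cells (56.8%), against 9.84%, 3.86% and 2.75%. Microglia numbered 420 in this library and 490, 844 and 474 in the others, in the same order.

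**Figure D1:**
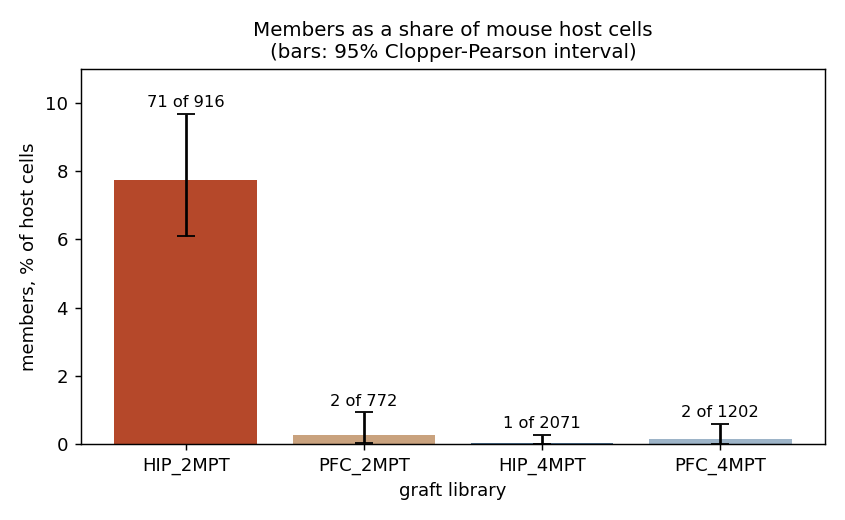
Members as a percent of mouse host cells in each graft library, with 95% Clopper-Pearson intervals and the counts above each bar. HIP_2MPT, at 7.75%, stands above the other 3 libraries, all under 0.3%.

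The first question was whether stage or graft site went with the share of members. The mean share was 4.01% ± 5.30 (SD, n = 2 libraries) at 2MPT and 0.107% ± 0.0835 (n = 2) at 4MPT, a difference that did not exceed the spread at 2MPT (two-sided exact permutation test, p = 0.333, the smallest that 2 against 2 libraries allow). By site the means were 0.213% ± 0.0655 in PFC and 3.90% ± 5.45 in HIP (exact permutation p = 1.00). Without HIP_2MPT the stage difference, 4MPT minus 2MPT, shrank from -3.90 to -0.152 percentage points, and the site difference, PFC minus HIP, turned from -3.69 to 0.164. With 1 library a group, library, site and stage cannot be told apart. The 4 graft libraries shared 5 host barcode sequences, and none of these was a member.

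Near the threshold of the rule, 47 members had UMIs of exactly 2 of the 6 markers, 28 had 3 and 1 had 4, while 209 host cells that met the other steps had 1 marker and stayed out (73 from HIP_2MPT, 6 from PFC_2MPT, and 58 and 72 from HIP_4MPT and PFC_4MPT). Of 99 host cells with at least 2 markers, 12 were left out for a UMI of P2ry12, Cx3cr1 or Cldn5 and 11 for T or NK cell genes. Plac8, a small cysteine-rich protein of myeloid and lymphoid cells, was in 62 of the 76 members, and Ly6c2, a surface antigen, in 50. S100a4 was in 32, the protease inhibitor Slpi in 21, S100a8 in 9 and S100a9 in 8. Plac8 and Ly6c2 occurred together in 44 members.

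Free RNA was gauged from the mouse UMIs found in barcodes with over 80% human UMIs. The rule used Plac8 and Ly6c2, so their height in members was set in part by the choice of cells. The values below describe these genes and cannot test whether members exceed free RNA. Plac8 stood at 1911 CPM (counts scaled to 1000000 mouse UMIs; 95% Poisson interval 1657 to 2194) in the members of HIP_2MPT and at 84.2 CPM in the free mouse RNA of that library. A Plac8 UMI was seen in 83.1% of its members (thinned to 1000 UMIs a cell, 85.0%), against 1.00% of its 100 oligodendrocytes, which should lack the gene. Ly6c2 was at 1514 CPM (1288 to 1767) in members and 49.7 CPM in free RNA. Its UMIs were in 67.6% of members (56.7% thinned) and in none of the oligodendrocytes, where a count of 0 of 100 allows up to 3% by a floor of 3 counts (Clopper-Pearson upper limit 3.62%). Median depth was 1392 mouse UMIs in these members and 956.5 in the oligodendrocytes. Slpi read highest, at 4494 CPM, but 430 of its 475 UMIs in the HIP_2MPT members came from 1 cell. S100a8 and S100a9 were also carried by few cells: S100a9 had 278 UMIs in 5 of the 71 members, and 139 of them were in 1 cell.

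**Figure D2:**
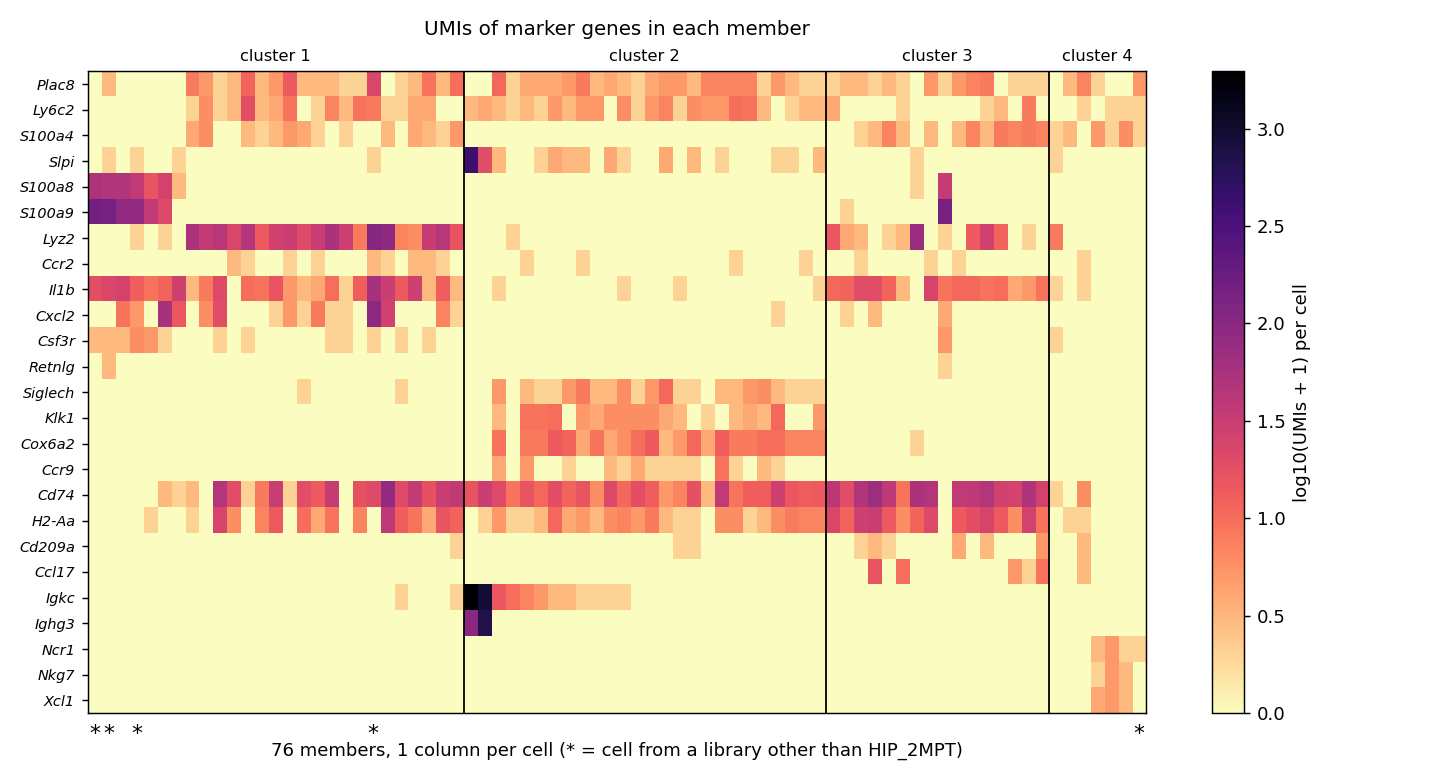
UMIs of 25 marker genes (rows) in each of the 76 members (columns, grouped by cluster), on a log10(UMIs + 1) colour scale. High S100a8 and S100a9, high Lyz2, the Siglech, Klk1 and Cox6a2 block, 100 or more UMIs of Igkc and Ncr1 fall in different cells, while lower Igkc counts also occur in cells of the Siglech block.

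When the members were clustered on their own, they fell into 4 clusters of 27, 26, 16 and 7 cells, each described by its leading genes and by lists of cell type markers. Signatures read cell by cell, with cuts chosen after the values were seen, separated the members further. At least 4 of 7 plasmacytoid dendritic genes were found in 23 members, at least 5 Lyz2 UMIs in 26, at least 20 UMIs of S100a8 and S100a9 together in 7, at least 100 UMIs of the immunoglobulin light chain Igkc in 2, and a UMI of the NK cell receptor Ncr1 in 4. No member met 2 of these 5 criteria, 62 met 1 and 14 met none. By counts of list genes, 1 member, the deepest, had both at least 4 classical monocyte and at least 3 mature neutrophil genes. No doublet caller was run, and the part of doublets was not tested.

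Cluster 2 (26 cells, all from HIP_2MPT) was plasmacytoid-dendritic-like. All 7 genes of that list were detected in members: Cox6a2, a muscle-type subunit of cytochrome oxidase, in 23 cells of the cluster (168 UMIs), the lectin Siglech in 22, the transcription factor Tcf4 in 23, the antiviral tether Bst2 in 23, the kallikrein Klk1 in 18 and the chemokine receptor Ccr9 in 14. Klk1 and Ccr9 had no UMI in any other member. The count of these genes per cell had a gap: 23 members had 4 or more, none had 3, 4 had 2 and 49 had 0 or 1. Of the 23, 21 carried both Plac8 and Ly6c2, and none carried S100a4. Cluster 2 had a single Lyz2 UMI in its 26 cells and no S100a8 or S100a9. The immunoglobulin lambda constant gene Iglc3 was in 20 of its cells and in no other member, and Irf8, a transcription factor of dendritic cells and monocytes, was at 791 CPM against 75.6 CPM in cluster 1. In a clustering of all host cells, 23 members shared a cluster of 27 cells, all from HIP_2MPT, and the other 4 cells in it had been left out by the rule. Most members lay among cells outside the rule: 45 (27 of cluster 1, 16 of cluster 3 and 2 of cluster 4) shared a host cluster with 79 cells that were not members. Another 5 lay beside 110 such cells in a cluster led by T and NK cell genes, and 3 beside 420 in a cluster with microglia genes. These neighbours count among the other host cells in the comparisons below.

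Cluster 1 (27 cells) held cells with monocyte genes and cells high in S100a8 and S100a9, so it was given no cell type name. In this cluster 15 cells also had at least 3 of the 7 listed MHC class II genes. Lyz2, lysozyme, was in 22 of its cells with 697 UMIs, and 17 of the 27 had at least 4 of 13 classical monocyte genes. Ms4a6c (16 cells), Ms4a4c (13), the lipopolysaccharide co-receptor Cd14 (17), the lectin Clec4e (16) and Ccr2, the receptor that brings monocytes to inflamed tissue (9), were its most frequent monocyte genes after Lyz2. Of the 13 genes of that list, only Vcan had no UMI in any member. The members with at least 5 Lyz2 UMIs were 25 cells of HIP_2MPT and the 1 member of HIP_4MPT. The HIP_4MPT cell was the deepest member, with 4614 mouse UMIs, and held 104 UMIs of Lyz2, 92 of the neutrophil-attracting chemokine Cxcl2, 58 of Il1b, 22 of Plac8 and 10 of the 13 monocyte genes.

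Cells with at least 20 UMIs of S100a8 and S100a9 together were few but occurred in 3 libraries. Their S100a9 counts were 20, 36, 82 and 139 UMIs in the 4 cells of HIP_2MPT, 141 and 152 in both members of PFC_2MPT, and 82 in 1 of the 2 members of PFC_4MPT. S100a8 had 15 to 51 UMIs a cell. In 1 of these cells, from HIP_2MPT, Cxcl2 (56 UMIs) was above S100a8 (25) and S100a9 (20) together. These 7 cells held at most 1 Lyz2 UMI each, and 3 to 8 of 12 mature neutrophil genes such as the cytokine receptor Csf3r, which was in all 7. They were shallow, with 654 to 1267 mouse UMIs, and 6 of them lay in cluster 1 and 1 in cluster 3. Across all members, Ly6g, the defining surface antigen of mouse neutrophils, had no UMI, and neither had the granule genes Ltf, Camp, Ngp, Mpo and Elane, which neutrophils express mainly as precursors. Of the 11 granule and precursor genes, 8 were at 0 and 3 had a member UMI: Lcn2 (18 UMIs, 15 of them in the PFC_2MPT members), Chil3 (4) and Prtn3 (3). Since S100a8 and S100a9 were used by the rule, their height is not independent evidence of what the cells are. Of the 5 members outside HIP_2MPT, then, 3 were S100a8 and S100a9 cells, 1 was the Lyz2 cell of HIP_4MPT and 1, in PFC_4MPT, had a UMI of Ncr1.

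Genes of other granulocytes and cells of the blood left little trace in members. The rule asked for at least 2 of its 6 markers and barred Cx3cr1, so it limited which blood cells could become members. These counts therefore do not show whether such cells were present among the host cells. Of 6 eosinophil genes, Prg2 alone was detected (4 UMIs), and of 7 basophil and mast cell genes, Kit alone (2 UMIs). No platelet gene of 4 had a UMI. Of 10 cycling genes 5 had one, Tuba1b with the most (26 UMIs), and Top2a and Cdk1 had none. Non-classical monocyte genes were detected for 8 of 10, led by the immediate early gene Nr4a1 (35 UMIs), while Spn and Eno3 were at 0.

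Cluster 3 (16 cells, all from HIP_2MPT) was led by Ccl17, a chemokine of dendritic cells, with 37 UMIs in 5 cells, and by MHC class II genes. Cd74, the invariant chain that guides MHC class II molecules, was at 22123 CPM in this cluster, 10791 in cluster 1, 9045 in cluster 2 and 584 in cluster 4. H2-Aa was in 15 of its 16 cells. The lectin Cd209a was in 6 cells, S100a4 in 12 and Lyz2 in 11, and Klk1 and Siglech in none. The median cell had 1 of 10 conventional dendritic and 3 of 13 classical monocyte genes, so the cluster was left without a cell type name.

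Cluster 4 (7 cells, 6 from HIP_2MPT and 1 from PFC_4MPT) was led by the lymphocyte chemokine Xcl1, the kinase Txk, Ncr1 and Nkg7. Ncr1 was in 4 cells and Xcl1 in 3, each with 1 to 4 UMIs, and S100a4 was in 6. Few NK cell genes were detected, 2 in the median cell, and the cluster stayed unnamed. The rule removed cells with 2 or more of 7 T and NK cell genes, so such cells could stay only where at most 1 was captured. Among the 67 HIP_2MPT host cells removed on that ground at any marker count, 34 had at least 2 of Nkg7, Gzma and Klrd1, and 31 had at least 2 of Cd3e, Cd3d, Trac and Trbc2.

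Immunoglobulin transcripts marked 2 further members of HIP_2MPT, both in cluster 2. They held 937 and 1970 UMIs of Igkc and 681 and 97 of the heavy chain Ighg3, a product of antibody-secreting cells, out of 2713 and 4242 mouse UMIs. The second held 430 UMIs of Slpi, and both had Ly6c2. Neither had a UMI of Cox6a2, Klk1, Siglech or Ccr9. These 2 cells gave 98.5% of the Igkc UMIs and 94.3% of the Slpi UMIs in the HIP_2MPT members, and without them Slpi fell from 4494 to 273 CPM while Plac8 moved from 1911 to 2046 CPM. Ms4a1 and Pax5, markers of B cells, had no UMI in any member.

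Markers of most resident brain cells were low or at 0 in members. The complement gene C1qa, abundant in microglia, had a UMI in 16.9% of HIP_2MPT members, 100% of microglia and 17.0% of oligodendrocytes, so in members it was at the level of cells that should lack it. Of the 11 microglia genes, P2ry12 and Cx3cr1 (barred by the rule) and Sall1 had no UMI in members. Of the 9 that the rule did not use, 8 were over 2-fold lower than in other host cells of HIP_2MPT, where 24.5% of all genes measured were. The exception, Siglech, was the plasmacytoid dendritic marker above. The endothelium list summed to 170 CPM in HIP_2MPT members and 144 CPM in its other host cells. Of its 7 genes 4 had a member UMI, led by Ly6c1 (11 UMIs), and Cldn5 (barred by the rule), Itm2a and Slco1a4 were at 0. Of the 5 measured against other host cells, none was over 2-fold higher and 2 were lower, with a median log2 ratio of 0.02. Of 6 oligodendrocyte genes 5 had a member UMI, led by the myelin gene Mbp (11 UMIs). That list summed to 208 CPM in HIP_2MPT members against 2652 in other host cells, and to 7 UMIs (2150 CPM) in the PFC_4MPT members against 6419. Ttr, the transthyretin of the choroid plexus, had 9 UMIs in the HIP_4MPT member and none in the others. The part of free RNA or mixed droplets in these counts was not tested. No member had a UMI of any of 6 astrocyte, 5 oligodendrocyte progenitor or 7 fibroblast and meningeal genes. Of the macrophage genes of the brain's borders, Pf4, Cd163 and Lyve1 were at 0, and no member had 2 of Mrc1, Pf4, Cd163 and Lyve1. Red cell genes were low, with Hbb-bs at 85.2 CPM in HIP_2MPT members and 11302 CPM in its other host cells.

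**Figure D3:**
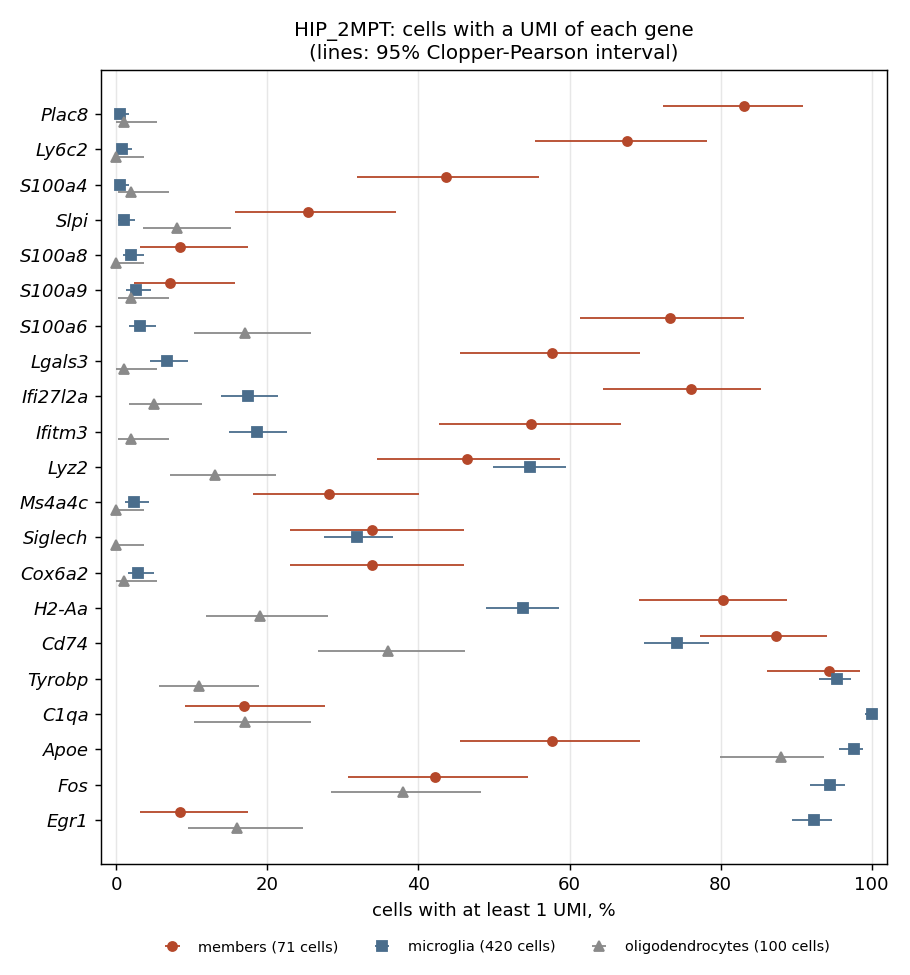
Percent of cells with at least 1 UMI of each of 21 genes in HIP_2MPT members, microglia and oligodendrocytes, with 95% Clopper-Pearson intervals. Plac8, Ly6c2, S100a4, S100a6, Lgals3 and Ifi27l2a are frequent in members, while S100a8 (8.45%) and S100a9 (7.04%) are in few. C1qa is frequent in microglia.

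Beyond the markers of the rule, the pathway lists were compared in HIP_2MPT, the only library with enough members, against the 845 other host cells of the library. Of 9240 genes with at least 10 UMIs in both groups together, 7.68% were over 2-fold higher and 24.5% over 2-fold lower in members (log2 of CPM + 10, median -0.19). These counts describe 1 library and carry no test. Since the members are a mixture, levels are also given by cluster.

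Genes of the type I interferon response were among the higher ones, with 10 of 15 measured genes over 2-fold higher, 1 lower and a median log2 ratio of 1.38. Ifi27l2a, an interferon-induced mitochondrial protein, was at 2895 CPM in members (Poisson interval 2580 to 3239) and 363 CPM in other host cells, and was in 76.1% of members. It was higher in members than in other host cells in each of the 4 libraries. Outside HIP_2MPT this rested on 7 UMIs in 2 members of PFC_2MPT, 9 in 1 member of HIP_4MPT and 3 in 2 members of PFC_4MPT. Ifitm3, which blocks virus entry, was at 2678 CPM against 429. Nearly all its UMIs lay in clusters 1 (5345 CPM) and 3 (4448 CPM), with 3 UMIs in cluster 4 and none in cluster 2. Bst2 showed the opposite split, at 3262 CPM in cluster 2 and 429 CPM in cluster 1. Irf7, the factor that drives interferon production, was at 218 CPM against 38.1.

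Of the 6 S100 genes that the rule did not use, 3 were over 2-fold higher in members, S100a1 and S100b were over 2-fold lower and S100a13 lay between. S100a6 was at 2337 CPM in members against 433 in other host cells, and was at 4566 CPM in cluster 3, 2975 in cluster 1, 2240 in cluster 4 and 445 in cluster 2. S100a11 was at 624 CPM against 145, and S100a10 at 388 against 127. S100a1 was at 56.8 CPM against 170, and S100b had no UMI in the HIP_2MPT members and was at 66.8 CPM in other host cells.

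Of the oxidase and antimicrobial genes, 5 of 10 measured were over 2-fold higher and 1 lower. Lyz2 was at 7058 CPM in members against 2435, and at 17573 CPM in cluster 1 against 24.7 in cluster 2. Rac2, a GTPase of the blood-cell oxidase, was at 596 CPM against 165 and was present in all 4 clusters. Alox5ap, which feeds leukotriene synthesis, was at 634 against 147. Cyba, a membrane subunit of the oxidase, differed less, at 1363 against 982.

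Receptors and adhesion molecules used by cells that leave the blood were mixed, with 6 of 16 over 2-fold higher, 1 lower and a median log2 ratio of 0.39. The hyaluronan receptor Cd44 was at 236 CPM against 76.1, the integrin subunit Itga4 at 161 against 31.3 and the chemokine receptor Cxcr4 at 142 against 33.0. Selplg, the selectin ligand, was at 274 against 455. Cd177, a neutrophil surface protein, had no UMI in members.

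Cytokine and chemokine genes split between members and microglia. Of 18, 4 were over 2-fold higher and 8 over 2-fold lower than in other host cells. Il1b, the inflammatory cytokine, was at 3841 CPM in members and 3052 CPM in HIP_2MPT microglia, and among members at 8975 CPM in cluster 1 and 98.9 CPM in cluster 2. Il1rn, the antagonist of the same receptor, was at 662 against 137 CPM in microglia, and Cxcl2 at 1476 against 415. The chemokines Ccl4 and Ccl3 went the other way, at 1561 and 218 CPM in members against 11530 and 2657 CPM in microglia.

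Lipid handling and phagocytosis genes were lower, with 9 of 14 over 2-fold lower and 1 higher. Apoe was at 3520 CPM in members, 14364 in other host cells and 16073 in free RNA, and the part of free RNA in its members' counts was not tested. Trem2, a lipid receptor of microglia, was at 123 CPM against 758, and the protease Ctsd at 378 against 3416. Lgals3, a galectin of activated macrophages, was the exception, at 993 CPM against 240 and in 57.7% of members. Of the 12 genes that rise during dissociation and heat shock, 11 were over 2-fold lower in members. Egr1 was at 75.7 CPM against 1460, and Fos at 549 against 2700. Within members Fos was at 1538 CPM in cluster 1 (1003 CPM in its HIP_2MPT cells alone) and 272 in cluster 2.

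MHC class I genes were at like levels, with 0 of 10 past 2-fold and a median log2 ratio of 0.02. H2-D1, a class I heavy chain, was in 98.6% of HIP_2MPT members. For MHC class II, 0 of 7 were past 2-fold (median 0.42). Microglia of this library carried them too: H2-Aa was at 4712 CPM in members, 3293 in microglia and 2605 in free RNA, and 19% of the oligodendrocytes had a UMI of it. None of the 5 members from the other 3 libraries had a UMI of H2-Aa, H2-Ab1 or H2-Eb1, but the HIP_4MPT member had 19 UMIs of Cd74 and 24 over the 7 genes (5202 CPM).

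**Figure D4:**
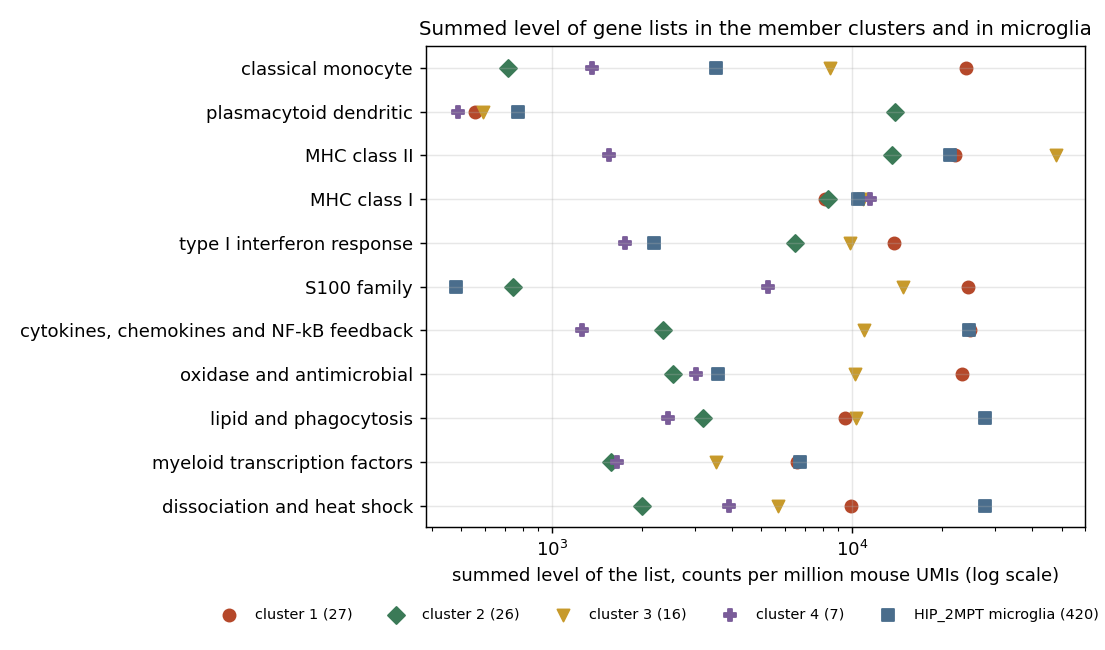
Summed level of 11 gene lists, in CPM on a log axis, in each of the 4 member clusters and in HIP_2MPT microglia. The clusters lie close together for MHC class I and apart for the monocyte, plasmacytoid dendritic, S100 and MHC class II lists. The S100 list includes S100a4, S100a8 and S100a9, which the rule used, and 1 cell of cluster 3 held 172 UMIs of S100a8 and S100a9 together.

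Of the myeloid transcription factors, 5 of 15 were over 2-fold lower and 1 higher, near the shares of all genes measured (24.5% lower and 7.68% higher). Runx3, a factor of dendritic cells and lymphocytes, was the higher one, at 199 CPM against 49.9. Klf2 was at 132 CPM against 988. Cebpb, a factor of granulocytes and inflamed macrophages, was at 2899 CPM in cluster 1, 1260 in cluster 3 and 74.1 in cluster 2. Cluster 1 includes 4 cells of the other libraries, and its 23 HIP_2MPT cells alone gave 1756 CPM of Cebpb. The list of pathogen and Fc receptors had 2 of 13 genes over 2-fold higher and 3 lower, also not far from those shares. The adaptor genes Tyrobp and Fcer1g, shared by myeloid cells, were in 94.4% and 81.7% of HIP_2MPT members and in 95.5% and 86.0% of microglia, against 11% and 4% of oligodendrocytes.

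The 15 genes with the largest ratio of members to other host cells among 26 that had at least 100 UMIs in members and were higher in members in all 4 libraries were Slpi, Plac8, Ifi27l2a, Lst1, S100a6, Ifitm3, Cd52, Ifitm2, Il1b, Srgn, Rps27, Btg1, Tyrobp, Cyba and Rpl35a. Slpi and Plac8 were used by the rule, and without the 2 members rich in Igkc, Slpi had 30 UMIs in place of 478, too few to enter this ranking. Lst1, a leukocyte surface protein, was at 1442 CPM over all members and 74.5 CPM over all other host cells (19.4-fold), and Cd52, a lymphocyte and monocyte antigen, at 1779 and 177 CPM (10.1-fold). These ratios pool the libraries, and HIP_2MPT gave most of the members' UMIs but few of those of other host cells. Outside HIP_2MPT, being higher in every library rested on only 1 or 2 members each. Within HIP_2MPT both ratios were smaller, with Lst1 at 1362 against 363 CPM (3.75-fold) and Cd52 at 1769 against 889 CPM (1.99-fold). The order also differs there: by the HIP_2MPT levels given above, S100a6 and Ifitm3 have larger ratios than Lst1.

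Differences between stages and sites within members were tested on UMIs summed per library, using the quasi-likelihood test of edgeR, with p-values adjusted by the Benjamini-Hochberg method. The 71 members of HIP_2MPT summed to 105690 UMIs, the 2 of PFC_2MPT to 2243, the 1 of HIP_4MPT to 4614 and the 2 of PFC_4MPT to 3256. Between 4MPT and 2MPT, 0 of 75 genes passed an adjusted p of 0.05 (background 0%), with 0 at an unadjusted p under 0.05, and DESeq2 also called 0. Between PFC and HIP, with stage in the fit, edgeR called 0 of 75 (background 0%), with 5 genes at an unadjusted p under 0.05. DESeq2 called 4 genes there, S100a8 and S100a9 higher in PFC and Lyz2 and Cd74 lower, at adjusted p from 4.88e-05 to 0.0416. S100a8 and S100a9 were markers of the rule, so their calls are not independent of how the members were chosen, and the PFC sums hold 4 cells, 3 of which are S100a8 and S100a9 cells. The stage change in members against that in microglia gave 0 of 5259 genes with edgeR (background 0%; 10 at an unadjusted p under 0.05) and 1 with DESeq2, the red cell gene Hbb-bs. The sign of that call was positive, but members had 9 Hbb-bs UMIs in HIP_2MPT and none in the other libraries, so it shows no rise in members. In microglia the red cell list was at 3161 (HIP) and 1085 CPM (PFC) at 2MPT and at 3.63 and 0.749 CPM at 4MPT. A p that misses the threshold in sums of 1 or 2 cells does not show that levels were alike.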

How the data were processed

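The authors made UMI count matrices with Cell Ranger (3.1 in the labels, 5.0.0 in the matrix headers) against a human and mouse dual reference, and the deposited counts are raw whole numbers per gene and barcode. Mouse features carry the prefix mm10, whereas the methods name GRCm39. The 4 dual-reference libraries held 10673 (HIP_2MPT), 7010 (PFC_2MPT), 9869 (HIP_4MPT) and 13414 (PFC_4MPT) barcodes and 14286046, 17541670, 33907594 and 25815271 UMIs. The human-only matrices and the organoid library taken before grafting hold no mouse counts and were not used.

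Members and lists of genes were chosen with earlier results of these data known. Microglia were host cells with P2ry12 or Cx3cr1 and at least 3 of 6 microglia genes, and oligodendrocytes had at least 3 of 6 myelin genes. Levels were CPM of mouse UMIs with exact Poisson intervals, and shares had exact Clopper-Pearson intervals (95%). For shares at equal depth, cells were thinned to 1000 UMIs, leaving out 11 HIP_2MPT members. Clusters came from scanpy 1.11.5 (members: 1000 variable genes, 15 components, Leiden resolution 1.0; all host cells: 2000 genes, 30 components). Sums per library were tested with edgeR 4.0.16 (filterByExpr, TMM), without a covariate for stage, with stage for site, and with library as a block for the interaction with microglia; DESeq2 1.42.0 was an alternative. The tests were tried on simulated counts, where at the real sums the interaction with microglia called no changed gene, so its lack of calls is uninformative. The stage and site tests called most of the few changed genes deep enough to be tested. Those counts were drawn with far less spread between libraries than the members had (estimated common dispersion 0.772 for stage and 0.720 for site). The recovery therefore does not show what these 2 tests could find in the real sums. Genes named were those of the rule, those of 38 lists, up to 10 called genes per direction and 15 by ratio; genes such as Igkc, Ighg3, Iglc3, Xcl1, Txk, Ccl17 and Cd52 were named after their values were seen. Samples were grouped by the treatment label, and 1 library per group leaves p-values that measure the spread between libraries only.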

Additional observations from a re-analysis of the deposited data

Results flagged for a closer look

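Barcodes of mixed species, with 20 to 80% human UMIs and more than 500 mouse UMIs, lay outside the host cells compared here. In HIP_2MPT, 22 of 248 such barcodes met the marker rule (8.87%), near the 71 of 916 host cells of that library (7.75%). In PFC_2MPT, HIP_4MPT and PFC_4MPT, 0 of 66, 0 of 412 and 0 of 691 mixed barcodes did. This signal stood out because it sits in barcodes that no comparison above uses, and in the same library as 71 of the 76 members.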

How the results depend on the processing

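The share of members in HIP_2MPT moved from 7.75% to 11.7% with human UMIs under 10%, to 2.73% with at least 3 markers and to 1.53% without cells with 2 MHC class II or 2 macrophage genes, and stayed within its interval under the other 2 settings. Leaving out each library gave stage differences from -7.64 to -0.152 and site differences from -7.54 to 0.164 percentage points, the last without HIP_2MPT. Calls between PFC and HIP were 4 with DESeq2 and 0 to 8 with a library and the stage term left out together, since 3 libraries cannot carry both terms; dropping stage alone gave 0. The 8, without PFC_2MPT, were S100a8, S100a9 and Ccl5 (higher in PFC) and Igkc, Ighg3, Cd74, Apoe and Ifitm3 (lower). PFC was then 1 library of 2 cells, assumed to vary like the HIP libraries, and the rule had used S100a8 and S100a9. Calls in the interaction with microglia were 1 with DESeq2 and 0 to 1 with a library left out (S100a9, without PFC_2MPT), and the stage comparison gave 0 under all 12 alternatives, graft site as replicate block included (0 calls). The causes were not tested. Thinning moved the share of HIP_2MPT members with Ccr2 from 22.5% to 13.3% and with Fos from 42.3% to 30%, and left 20 other genes within their intervals. Among those 20, S100a8 still went from 8.45% to 3.33% and S100a9 from 7.04% to 3.33%. The S100a8 and S100a9 cells of HIP_2MPT with 654, 680 and 979 mouse UMIs were too shallow to be thinned. Against microglia alone the median log2 ratio of the mature neutrophil list moved from 0.83 to 1.78. Chosen after seeing the data, Leiden resolution 2.0 gave 8 clusters in place of 4, resolution 0.5 gave 4, and leaving out the 2 members rich in Igkc moved Slpi from 4494 to 273 CPM. Keeping only the HIP_2MPT cells of clusters 1 and 4, also chosen then, moved Cebpb (to 1756 CPM) and Fos (to 1003 CPM) in cluster 1 and Rac2 in cluster 4 (from 1168 to 757 CPM) by over 1.5 times. Depth limits what 5 members outside HIP_2MPT can show.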
